A study of Mus musculus with 6 samples.

Results

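The 37 genes described here encode the machinery that burns fatty acids and uses ketone bodies, with 3 of its regulators. They were chosen by name, as the rows of the deposited gene table whose gene symbol is on a list of such genes, and all 37 of the 37 listed symbols had a row among the 23420 genes of the table. Poly(A) RNA was sequenced from humeri of C57BL/6 pups on postnatal day 6, after the marrow had been washed out with PBS. There were 3 libraries from mice labelled Control and 3 from mice labelled Tfam cKO, in which Tfam was deleted in limb mesenchyme expressing Prx1-Cre. The sources used here do not give the controls' alleles or the sex of the mice, nor say whether each library came from 1 animal, so p-values measure the spread between these libraries, which may be technical.

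Long-chain fatty acids are activated to acyl-CoA by synthetases and carried into mitochondria by the carnitine shuttle. Inside, dehydrogenases, a hydratase, a second dehydrogenase and a thiolase shorten the chain in repeated rounds, and the electron transfer flavoprotein passes the electrons of the first dehydrogenation to the respiratory chain. Tfam, mitochondrial transcription factor A, is needed to copy and transcribe mitochondrial DNA, which encodes part of that chain. Osteoblasts are known to take up and oxidize fatty acids, and ketone bodies are a fuel of suckling animals.

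The libraries held 1441152 to 1714770 reads assigned to genes, and values are given as the authors' normalized counts, which are reads divided by 1 size factor per library. Tfam itself had 61.3, 72.1 and 78.6 normalized counts in controls and 28.1, 46.1 and 47.6 in Tfam cKO (limma adjusted p = 0.0246). Prx1-Cre is known to act in limb mesenchyme and its descendants and not in blood cells or muscle fibres, whose RNA these bones also contain, and fewer cells of a type cannot be told apart from less RNA per cell. Defining bone genes were present in every library, with Ibsp, a bone sialoprotein, at 1702 to 1990 normalized counts in controls and 3867 to 5711 in Tfam cKO. The sum of the 8 bone-forming markers, given below, went the other way, with log2 fold changes of single markers from -1.68 to 1.30. Summed markers of B lymphoid cells (10 of 10 detected) were 713 to 1008 in controls and 139 to 260 in Tfam cKO, and those of cartilage (7 of 7) were 507 to 688 and 1256 to 2612. Summed markers of skeletal muscle (12 of 12) spread within both groups, from 1594 to 9612 in controls and 1633 to 13370 in Tfam cKO, with Control replicate 2 and Tfam cKO replicate 1 the highest of their groups. Of 8 macrophage markers 5 rose and 1 fell (sums 1163 to 1290 and 1441 to 1726), of 7 osteoclast markers 1 rose (12274 to 13642 and 15004 to 19141), and of 8 bone-forming markers 2 rose and 3 fell (145959 to 180905 and 77096 to 88052). Brown adipocyte markers were low (16.9 to 36.5 and 13.8 to 69.3), with none of 3 tested past the threshold.

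Enzymes that shorten the acyl chain had positive fold changes in Tfam cKO bone, most of them small, and genes of the entry steps were mostly at or below the control level. Among the 18 chain-shortening genes (dehydrogenases, hydration and thiolysis enzymes, auxiliary enzymes and electron transfer flavoprotein), 18 had a positive log2 fold change and 3 passed the test, Hadh, Acadl and Decr1. Among the 10 tested genes of activation and carnitine transfer, 8 had a negative fold change and 1 passed, the synthetase Acsl5, which fell. All 18 chain-shortening genes stayed positive under 19 alternative settings, while Cpt1c, Cpt2, Crat and Acsl4 among the entry genes changed sign under some, and the difference between both sets was not tested. The largest rise was in Acot2, a mitochondrial thioesterase, whose mean was 4.67 times that of controls, and Oxct1, the enzyme that lets tissues use ketone bodies, rose as well. A limma fit over 14438 genes with a mean of at least 1 normalized count gave the tests, at a Benjamini-Hochberg adjusted p under 0.05. Of the 37 members 36 entered it, and 5 were higher (13.9%) and 1 lower (2.78%), where 6.42% of all genes tested were higher and 6.01% lower. The median log2 fold change was 0.30 over the members and 0.01 over all genes tested, 26 of the 36 (72.2%) were positive against 50.7% of all genes, and no p-value is attached to the members as a list. On the recovered reads, edgeR also gave 5 higher and 1 lower, with Echs1 in place of Oxct1 (6.47% and 5.76% of all genes), and DESeq2 gave 3 higher, Acot2, Hadh and Acadl, and 0 lower (4.2% and 3.76%).

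**Figure D1:**
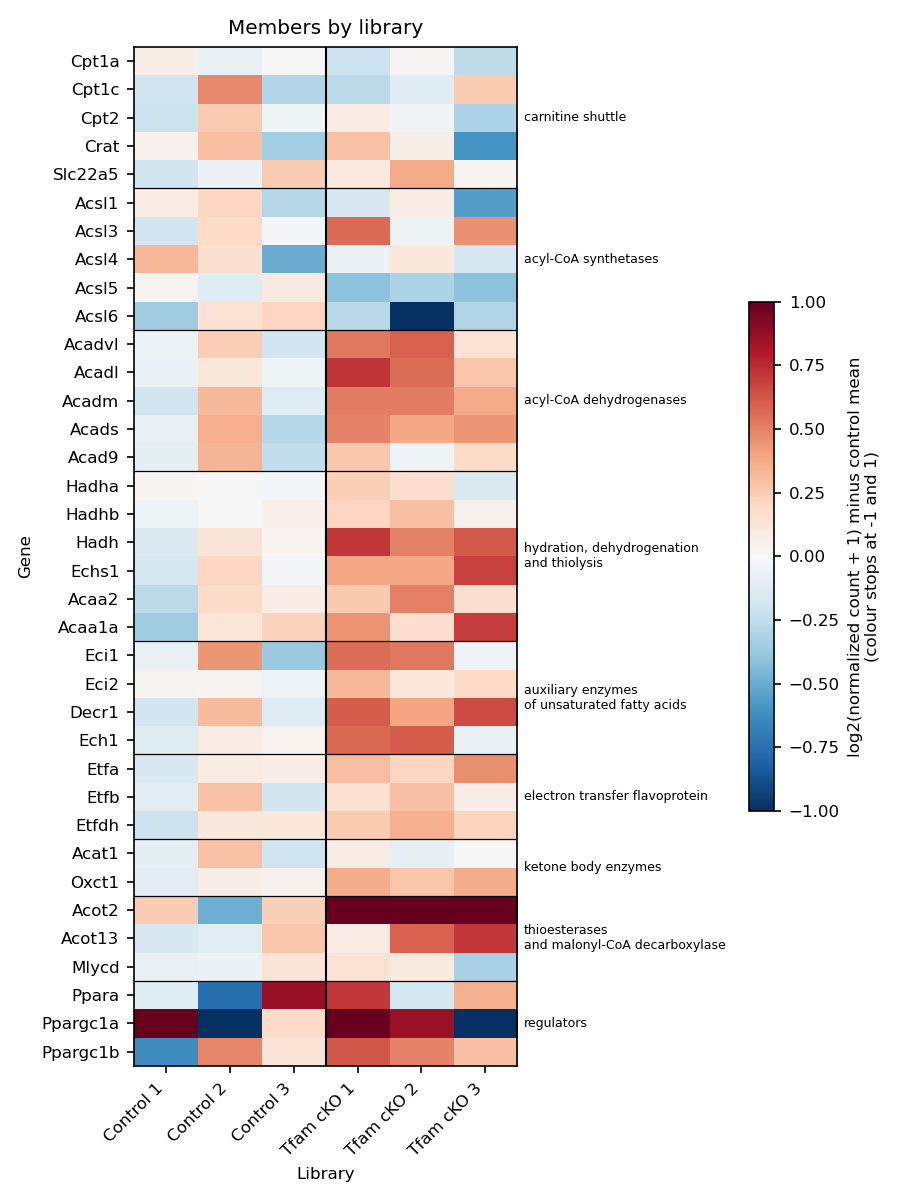
Each row is 1 of the 36 tested members and each column 1 library; colour gives log2(normalized count + 1) minus the control mean of that gene, and horizontal lines part the roles. The chain-shortening genes are mostly red in the 3 Tfam cKO columns, the carnitine shuttle and synthetase rows are mixed, and Acot2 is past the end of the scale in all 3.

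Promoter sequences of 4 members that passed the test and of 2 neighbours in the pathway show what the reference holds just before these genes. They are RefSeq windows on GRCm38.p6 (the mm10 build), 250 bases before to 50 bases after the annotated start, 5′ to 3′ on the gene's strand. Acot2, Hadh and Acadl rose and Acsl5 fell. Oxct1 also passed, and its window, not shown, held no match to the motifs searched for below. Decr1 passed too and had no window. Echs1 (adjusted p = 0.0515) and Etfa (0.0949), with the fold changes given below, did not pass and are shown because their windows hold matches to searched motifs, which are in capitals.
Acot2, chr12:83987611-83987910, plus strand: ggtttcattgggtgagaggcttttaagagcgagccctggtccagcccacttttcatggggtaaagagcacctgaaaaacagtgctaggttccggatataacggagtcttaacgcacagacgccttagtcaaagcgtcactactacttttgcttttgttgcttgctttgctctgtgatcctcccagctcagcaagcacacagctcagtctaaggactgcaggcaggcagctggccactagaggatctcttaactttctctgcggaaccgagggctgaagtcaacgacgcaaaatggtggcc
Hadh, chr3:131272052-131272351, minus strand: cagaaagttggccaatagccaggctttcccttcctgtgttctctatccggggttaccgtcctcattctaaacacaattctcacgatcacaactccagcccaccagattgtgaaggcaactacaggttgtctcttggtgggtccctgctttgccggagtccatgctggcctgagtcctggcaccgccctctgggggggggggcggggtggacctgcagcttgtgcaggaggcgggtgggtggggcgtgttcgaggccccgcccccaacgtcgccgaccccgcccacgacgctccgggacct
Acadl, chr1:66863260-66863559, minus strand: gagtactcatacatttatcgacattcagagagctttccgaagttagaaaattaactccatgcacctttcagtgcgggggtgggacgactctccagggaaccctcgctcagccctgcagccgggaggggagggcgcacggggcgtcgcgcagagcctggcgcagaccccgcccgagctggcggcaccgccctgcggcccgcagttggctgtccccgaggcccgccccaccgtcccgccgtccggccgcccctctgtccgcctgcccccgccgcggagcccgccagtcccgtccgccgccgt
Acsl5, chr19:55253119-55253418, plus strand: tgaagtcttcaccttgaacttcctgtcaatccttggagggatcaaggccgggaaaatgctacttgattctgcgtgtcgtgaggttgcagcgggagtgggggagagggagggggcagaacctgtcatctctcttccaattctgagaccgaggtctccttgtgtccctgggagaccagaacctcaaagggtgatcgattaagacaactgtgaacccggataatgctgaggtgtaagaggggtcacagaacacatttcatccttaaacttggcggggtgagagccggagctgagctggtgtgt
Echs1, chr7:140116372-140116671, minus strand: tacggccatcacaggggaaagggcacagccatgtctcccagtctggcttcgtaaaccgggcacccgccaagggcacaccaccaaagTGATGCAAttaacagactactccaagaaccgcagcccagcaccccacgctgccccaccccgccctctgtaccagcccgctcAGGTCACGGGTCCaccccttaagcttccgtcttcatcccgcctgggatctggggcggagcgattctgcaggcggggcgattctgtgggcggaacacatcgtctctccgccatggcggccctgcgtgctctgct
Etfa, chr9:55512194-55512493, minus strand: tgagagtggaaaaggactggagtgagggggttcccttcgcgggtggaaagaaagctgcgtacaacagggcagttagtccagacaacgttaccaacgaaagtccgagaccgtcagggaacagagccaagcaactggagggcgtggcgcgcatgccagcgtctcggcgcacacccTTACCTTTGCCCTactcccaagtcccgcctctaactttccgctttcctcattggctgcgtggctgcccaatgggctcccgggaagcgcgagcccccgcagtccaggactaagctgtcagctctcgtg

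Of the 37 members, 29 matched a RefSeq promoter by symbol, with 32 windows in all, and for 27 of the 29 a window's start lay within 200 bases of the 5′ end in the deposited table. Both strands were searched for 4 motifs. The PPAR-type direct repeat AGGTCANAGGTCA, with up to 2 mismatches, was matched in 2 of the 32 member windows (6.25%) and in 3.86% of all 32851 promoter windows. Those 2 matches were in Echs1 and, on the opposite strand, in Etfa, each with 2 mismatches. The amino acid response core TGATGNAA was matched in 1 member window, that of Echs1 (3.12% against 3.97% of all windows), and the ERR-type site TNAAGGTCA, whose last letters are also those of the PPAR-type repeat, in 1, that of Acsl6 (3.12% against 1.28%). The NRF1 core, GCGCA and GCGC with any 1 base between them, was matched in 4 member windows (12.5% against 4.60%), those of Etfb, Etfdh, Ppara and Slc22a5. The Acot2, Hadh, Acadl and Acsl5 windows held none of these letters, which says nothing of factors binding elsewhere.

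Activation of the fatty acid is the first step, and 1 of its 5 enzymes passed the test. Acsl5, a long-chain acyl-CoA synthetase, had 254, 229 and 266 normalized counts in controls and 187, 201 and 187 in Tfam cKO. All 3 Tfam cKO libraries lay below all 3 controls, a fall of 0.38 on the log2 scale (log2 fold change -0.38 ± 0.11 SE, limma adjusted p = 0.0332). The adjusted p was 0.118 or 0.121 with Control replicate 1 or 3 left out, 0.0944 or 0.0950 with Tfam cKO replicate 1 or 3 left out, and 0.103 with DESeq2 (range over 19 alternatives 0.0290 to 0.121). Acsl1, the other abundant synthetase, had 206, 226 and 160 in controls and 174, 206 and 133 in Tfam cKO, and the groups overlapped (-0.21, 95% interval -0.57 to 0.15). Acsl3, an enzyme of lipid droplets and endoplasmic reticulum, had a log2 fold change of 0.32 (-0.12 to 0.77), and Acsl4, which prefers arachidonic acid, -0.04 (-0.49 to 0.41). Of the 3950 exon bases of Acsl3, 419 are shared with Utp14b on the same strand, a gene with 28 reads in controls and 18 in Tfam cKO. Acsl6 had 13 reads over the 3 control libraries and 7 over the Tfam cKO libraries, too few to measure a difference (-0.66, -1.74 to 0.42). Of 8 tested erythroid markers 5 fell, with summed levels of 7086 to 9735 in controls and 4354 to 7286 in Tfam cKO and Hba-a1 listed at 0 throughout, and of 8 neutrophil markers 3 fell (9001 to 11481 and 6148 to 9488). All 10 B lymphoid markers fell, and the part of these cells in the fall of Acsl5 was not tested.

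None of the 5 tested genes of the carnitine shuttle passed. Cpt1a, the outer membrane transferase that commits acyl groups to oxidation and the isoform of liver and many other tissues, had 194, 176 and 186 normalized counts in controls and 159, 186 and 156 in Tfam cKO. The highest Tfam cKO value lay among the controls, and the log2 fold change was -0.15 (95% interval -0.40 to 0.09, limma adjusted p = 0.423). Cpt1c, the isoform known from brain, was at 19.1 ± 6.22 and 18.1 ± 3.68 (SD, n = 3 each; -0.05, -0.69 to 0.59). Cpt2, which rebuilds acyl-CoA at the inner membrane, was at 50.6 ± 8.54 and 47.4 ± 6.55 (-0.09, -0.49 to 0.32). Crat, which makes short-chain acylcarnitines (-0.08, -0.54 to 0.38), and Slc22a5, the carnitine transporter of the cell surface (0.17, -0.29 to 0.62), had intervals wider than those of Cpt1a and Cpt2. The intervals of Cpt1c, Cpt2, Crat and Slc22a5 overlap those of Acadl (0.24 to 0.79) and Decr1 (0.19 to 0.91), and that of Cpt1a does not. Differences between genes were not tested. Cpt1b, the muscle isoform, had 4 reads in all controls together and 1 in Tfam cKO and was not tested. Of its 2894 exon bases, 2744 are shared with BC090627, listed at 0 in every library, and how reads shared by both genes were counted is not known here.

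The acyl-CoA dehydrogenases, which start each round and are named for the chain length they prefer, all had positive fold changes. Acadl, the long-chain enzyme, rose from 151, 170 and 153 normalized counts to 260, 233 and 192. The groups did not overlap (log2 fold change 0.52 ± 0.13 SE, limma adjusted p = 0.0190). The adjusted p was above 0.05 when Control replicate 1 (0.0849) or 3 (0.0729), or Tfam cKO replicate 1 (0.0807) or 2 (0.0501), was left out, in a range of 0.00652 to 0.0892 over 19 alternatives. Acadm, the medium-chain enzyme, had 78.3, 113 and 82.6 in controls and 129, 129 and 117 in Tfam cKO (0.47 ± 0.15, adjusted p = 0.0634). Acads, the short-chain enzyme, had 46.2, 62.8 and 39.8 against 69.3, 64.0 and 66.7 (0.44 ± 0.18, adjusted p = 0.137). In both, every Tfam cKO library lay above every control, yet the test was not passed. Acadvl, the very-long-chain enzyme of the inner membrane, overlapped between groups (0.42 ± 0.15, adjusted p = 0.0856), as did Acad9, which also helps to assemble respiratory complex I (0.14 ± 0.18, adjusted p = 0.664). Without Control replicate 2, Acadvl, Acadm and Acads passed as well (limma adjusted p = 0.0474, 0.0169 and 0.0475), and Acadvl also did without Tfam cKO replicate 3 (0.0438).

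In the later steps of the round, Hadh led. Hadh, the hydroxyacyl-CoA dehydrogenase of medium and short chains, had 78.3, 94.6 and 87.5 normalized counts in controls and 142, 123 and 133 in Tfam cKO. Its 3 Tfam cKO libraries lay well above the controls (log2 fold change 0.61 ± 0.13 SE, limma adjusted p = 0.00830), and it passed under all 19 alternatives, at adjusted p up to 0.0462. Echs1, the short-chain hydratase, had 66.3, 87.1 and 73.6 against 98.5, 98.8 and 122, also without overlap, and did not pass (0.49 ± 0.15, adjusted p = 0.0515), although it did under 5 of 19 alternatives, edgeR among them (0.0475). Hadha and Hadhb encode the subunits of the trifunctional protein, which carries out these steps on long chains, and their starts lie 273 bases apart on opposite strands of chromosome 5. Hadha had 311, 305 and 303 in controls and 362, 345 and 277 in Tfam cKO (0.09 ± 0.11, 95% interval -0.16 to 0.33), and Hadhb 163, 168 and 174 against 195, 207 and 174 (0.19 ± 0.11, -0.05 to 0.43). Both pairs of groups overlapped. The upper bound of each lies below the estimate for Hadh but reaches its 95% interval (0.33 to 0.89), and a difference from Hadh was not tested. Acaa2, the mitochondrial thiolase (0.31 ± 0.14, adjusted p = 0.178), and Acaa1a, the peroxisomal thiolase (0.44 ± 0.19, adjusted p = 0.158), did not pass. Of all stretches of 75 bases in the Acaa1a transcript, 27.3% also occur in Acaa1b, which had 1 read in controls and 2 in Tfam cKO.

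Unsaturated fatty acids need auxiliary enzymes that move or reduce their double bonds. Decr1, the mitochondrial dienoyl-CoA reductase, rose from 54.2, 77.7 and 56.7 normalized counts to 95.2, 81.9 and 98.4. The groups did not overlap, although Control replicate 2 came close to Tfam cKO replicate 2 (log2 fold change 0.55 ± 0.17 SE, limma adjusted p = 0.0467). That adjusted p was 0.178 or 0.150 with Control replicate 1 or 3 left out, 0.125 or 0.143 with Tfam cKO replicate 1 or 3 left out, and 0.181 with DESeq2 (range over 19 alternatives 0.0189 to 0.181). The isomerases Eci1 (0.35 ± 0.24, adjusted p = 0.395) and Eci2 (0.21 ± 0.12, adjusted p = 0.285) and the dienoyl-CoA isomerase Ech1 (0.37 ± 0.17, adjusted p = 0.178) did not pass. Ech1 had 163, 167 and 105 in Tfam cKO against 100, 116 and 112 in controls, so that Tfam cKO replicate 3 lay among the controls, and without that library it passed (adjusted p = 0.0244).

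The electron transfer flavoprotein takes electrons from all the acyl-CoA dehydrogenases, and Etfdh hands them to ubiquinone. Etfa had 128, 151 and 149 normalized counts in controls and 176, 165 and 197 in Tfam cKO, without overlap (log2 fold change 0.33 ± 0.12 SE, limma adjusted p = 0.0949). Its partner Etfb had 139, 183 and 130 against 166, 184 and 156 (0.17 ± 0.14, adjusted p = 0.466), and Etfdh was at 93.7 ± 11.5 and 113 ± 5.53 (SD, n = 3 each; 0.28 ± 0.13 SE, adjusted p = 0.201). None of the 3 passed the test. In all, 11 of the 36 tested members (30.6%) had every Tfam cKO library above every control, where 16.6% of all genes tested did, and 9 of the 11 were chain-shortening genes. Acsl5 was the 1 member with every Tfam cKO library below (15.4% of all genes).

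**Figure D2:**
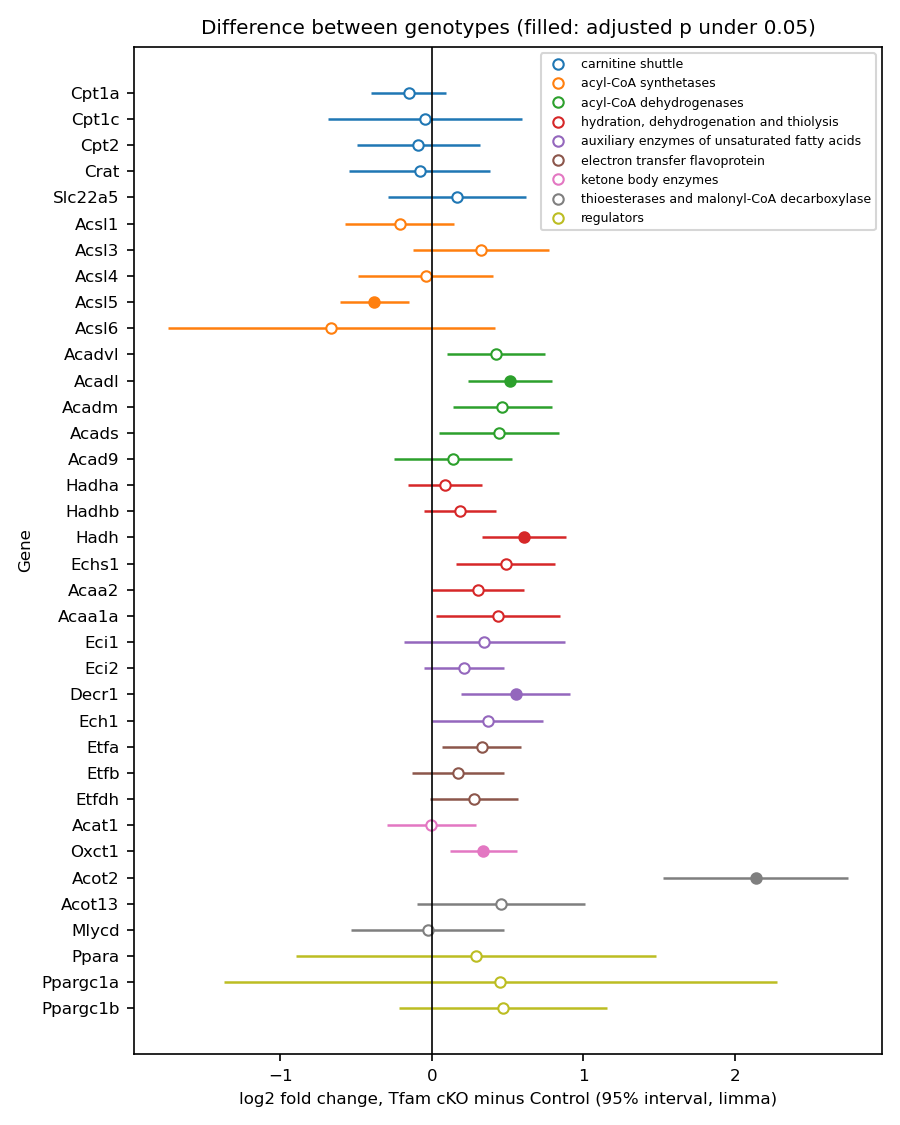
Points give the log2 fold change of each tested member, Tfam cKO minus Control, with its 95% interval from limma, coloured by role; filled points passed an adjusted p of 0.05. The 18 chain-shortening genes lie right of 0, between 0.09 and 0.61, the carnitine shuttle lies around 0, and Acot2 stands apart at 2.14.

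Acot2, which splits acyl-CoA into free fatty acid and CoA inside mitochondria, changed most. It had 10.04, 5.62 and 9.95 normalized counts in controls and 40.0, 40.5 and 39.1 in Tfam cKO, from 26 and 117 reads in all. The Tfam cKO libraries were close to each other and far above the controls (log2 fold change 2.14 ± 0.28 SE, limma adjusted p = 5.58e-04), and 0.422% of all genes tested had a fold change as large or larger. It passed under all 19 alternatives, at adjusted p up to 0.00615, and the authors' deposited table gives it a q-value under 0.05, as it does Hadh and Acadl, 3 members in all, where 6.62% of its 23420 genes have one. Acot1, its cytosolic paralog next to it on chromosome 12, was at 4.87 ± 0.81 and 12.1 ± 3.70 (SD, n = 3 each) and did not pass (1.13 ± 0.37 SE, adjusted p = 0.0686). Of all stretches of 75 bases in the Acot2 transcript, 20.5% also occur in Acot1 (GENCODE M21), so part of the reads could belong to either. Acot13, a mitochondrial thioesterase with a different fold (0.46 ± 0.26, adjusted p = 0.272), and Mlycd, which breaks down the Cpt1 inhibitor malonyl-CoA (-0.03 ± 0.23, adjusted p = 0.958), did not pass.

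Oxct1 attaches CoA to acetoacetate, the step that lets tissues outside the liver use ketone bodies. It rose from 188, 213 and 210 normalized counts to 263, 247 and 263. The groups did not overlap, and the change was modest (log2 fold change 0.34 ± 0.10 SE, limma adjusted p = 0.0483). Leaving out any 1 library ended the call, at adjusted p from 0.0591 without Tfam cKO replicate 2 to 0.185 without Control replicate 1. The adjusted p was 0.0546 with edgeR and 0.175 with DESeq2, and Oxct1 passed under only 4 of the 19 alternatives. Of its 3482 exon bases, 422 are shared with BC037032 on the opposite strand, a gene with 5 reads in controls and 3 in Tfam cKO. Acat1, the next enzyme on that route, had 164, 215 and 152 against 184, 165 and 176 (-0.00, 95% interval -0.29 to 0.29).

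**Figure D3:**
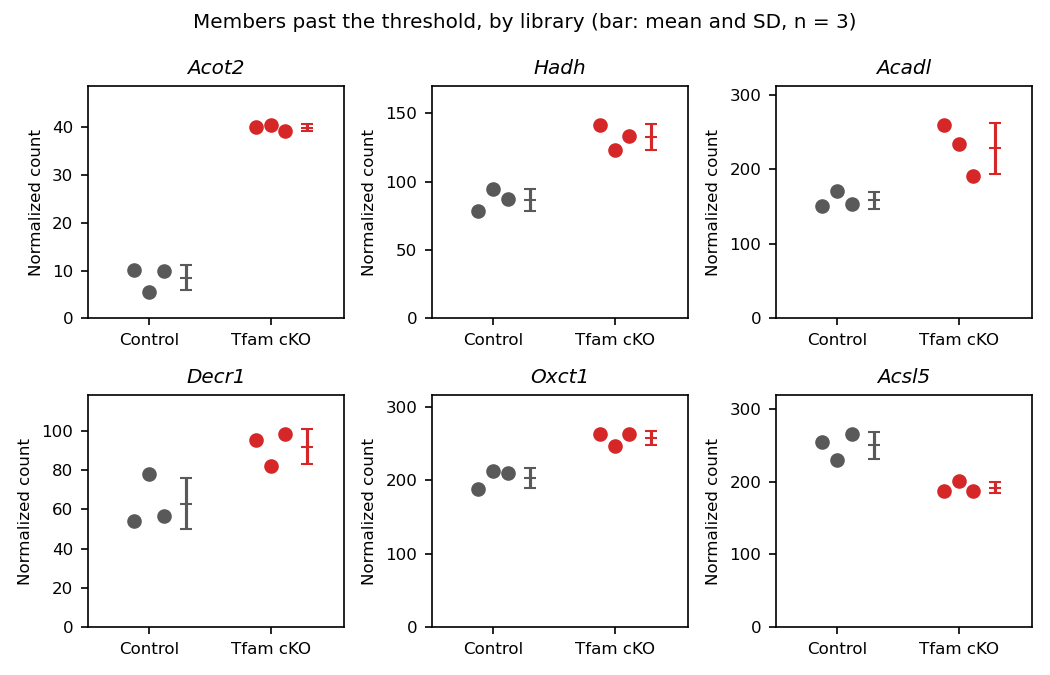
Normalized counts of the 6 members past the threshold, with 1 point per library and the mean and SD of 3 libraries beside them; axes start at 0. In each panel the 3 Tfam cKO points do not overlap the 3 Control points. They lie above them for Acot2, Hadh, Acadl, Decr1 and Oxct1 and below them for Acsl5. For Decr1 the nearest points, at 77.7 and 81.9, are close.

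The regulators on the list were measured loosely. Ppara, the fatty acid receptor that drives these genes in liver, had 8 reads over the controls and 9 over Tfam cKO, and the coactivator Ppargc1a had 7 and 12, so neither could be compared at this depth. Ppargc1b, a related coactivator, was at 15.2 ± 5.82 and 20.5 ± 2.38 normalized counts (SD, n = 3 each; log2 fold change 0.47, 95% interval -0.22 to 1.16). Ppargc1a was listed at 0 in Control replicate 2 and Tfam cKO replicate 3.

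Levels of different genes were compared as normalized counts per kilobase of exon. Etfb was the most abundant member in controls, at 167 ± 31.1 per kilobase (SD, n = 3), followed by Acaa2 (107 ± 16.9), Etfa (97.4 ± 8.87) and Ech1 (96.4 ± 7.21), and these 3 did not differ beyond their spread. Hadhb (86.3 ± 2.92) and Hadha (80.0 ± 1.09), partners in 1 complex, had similar levels, with Acadl (81.2 ± 5.54) between them. Cpt1a was at 43.1 ± 2.07 and Cpt1c at 6.83 ± 2.23. Cpt1b was at 0.45 ± 0.20, but how its reads shared with BC090627 were counted is not known here. Acsl5 (79.3 ± 5.85) lay above Acsl1 (50.7 ± 8.65) among the synthetases in controls, and in Tfam cKO they were at 60.8 ± 2.43 and 44.0 ± 9.39. Acot2 moved from 3.88 ± 1.15 to 18.1 ± 0.31 per kilobase, still below most enzymes of the pathway.

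**Figure D4:**
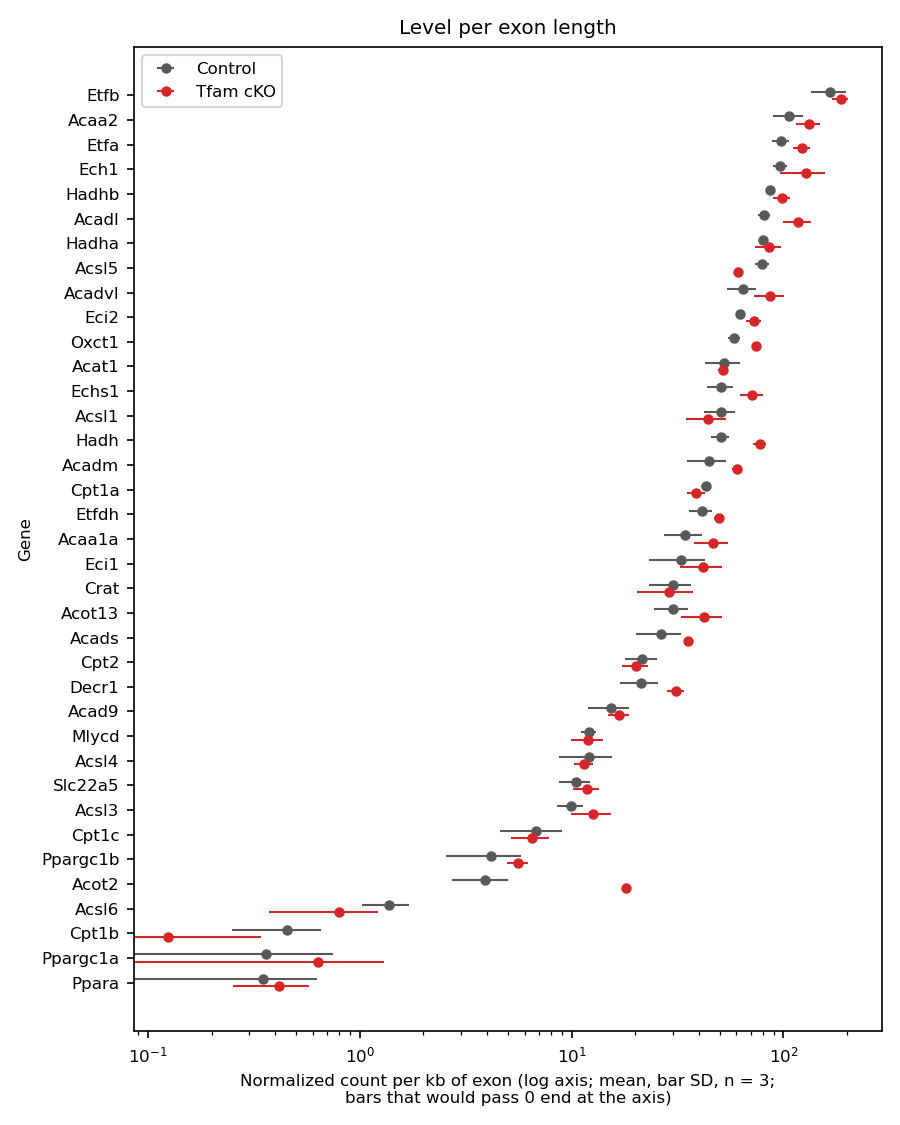
Members ordered by their control level in normalized counts per kilobase of exon, on a log axis, with mean and SD of 3 libraries per group. Most enzymes lie between 10 and 167 per kilobase in controls, Ppara and Ppargc1a lie below 1, and Acot2 shows the widest gap between groups among the well measured members.

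The wider pathway was described with 9 lists of related genes. On them were 91 tested genes that are not members, of which 6 were higher and 4 lower, and the median log2 fold change was 0.11. These shares are close to the 6.42% higher and 6.01% lower of all genes tested. Of 18 tested genes listed as responsive to PPAR receptors, 4 rose and 1 fell, where 6.42% and 6.01% of all genes did, and of the 13 that are not members 3 rose and 1 fell. Pdk4, which shuts pyruvate out of mitochondrial oxidation, rose from 74.3, 104 and 61.7 normalized counts to 194, 300 and 239 (1.61 ± 0.19 SE, limma adjusted p = 3.04e-04). Angptl4, a secreted inhibitor of lipoprotein lipase, rose from 85.4, 99.3 and 82.6 to 169, 190 and 184 (1.02 ± 0.12, adjusted p = 3.17e-04). Plin2, the coat protein of lipid droplets, rose from 140, 138 and 109 to 197, 265 and 244 (0.86 ± 0.14, adjusted p = 0.00195). In these 3 genes and in Acot2, the remaining riser, all Tfam cKO libraries lay above the controls. Other genes on that list were not past the threshold, among them Cpt1a and Hadha (values above) and the carnitine carrier Slc25a20 (0.27, adjusted p = 0.351). Creb3l3, a transcription factor of liver and gut, fell from 49 reads to 8 (-2.26, adjusted p = 0.00527).

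Among genes of fatty acid uptake and binding, Lpl, lipoprotein lipase, rose from 421 ± 53.4 to 610 ± 88.0 normalized counts (SD, n = 3 each; log2 fold change 0.53, limma adjusted p = 0.0168) and the transporter Slc27a1 from 79.2 ± 3.63 to 108 ± 3.90 (0.45, adjusted p = 0.0336). Fabp4, a fatty acid binding protein of fat cells and vessels, fell from 294 ± 49.5 to 170 ± 32.5 (-0.79, adjusted p = 0.00530). With the member Acsl5, these were the genes past the threshold among 18 tested for uptake, binding and activation. Of the 18, 2 were higher, 2 lower and 14 not past, where 6.42% of all genes tested were higher and 6.01% lower. Lpl did not pass without Control replicate 1 (0.0965) or Tfam cKO replicate 3 (0.0741), or after quantile normalization (0.0523). Slc27a1 did not pass without any 1 of the 6 libraries (0.0663 to 0.119), without the muscle-rich library of each group (0.114), with DESeq2 (0.211) or with the replicate number as a block (0.0669). Of the 8 adipocyte markers 4 were tested and 3 fell, Fabp4 among them, and their sum was 274 to 377 in controls and 150 to 217 in Tfam cKO. Most of that sum is Fabp4 itself (248, 347 and 288 in controls and 167, 204 and 140 in Tfam cKO), so it is no measure apart from Fabp4. Retn was listed at 0 in every library, Lep and Cidec had 1 read each, and the part of fat cells in the fall of Fabp4 was not tested. Without the library richest in muscle markers of each group, Fabp4 did not pass (0.0553).

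None of 15 tested peroxisomal genes passed, the member Ech1 among them. Of 8 other genes of ketone body use and transport, 1 fell, the monocarboxylate carrier Slc16a1 (log2 fold change -0.60, limma adjusted p = 0.0172), whose adjusted p was 0.0903 with Control replicate 1 left out and 0.0648 or 0.0629 with Tfam cKO replicate 1 or 3 left out, and 0.103 without the library richest in muscle markers of each group. Of 13 tested other mitochondrial acyl-CoA enzymes 1 fell. This was Acss1, which activates acetate in mitochondria, and it went from 116 ± 22.3 to 59.8 ± 18.3 normalized counts (SD, n = 3 each; -0.97, adjusted p = 0.00808, and 0.0547 without Control replicate 1). A list of dehydrogenases of amino acid breakdown, related acyl-CoA dehydrogenases and partners of the electron transfer flavoprotein had 8 tested genes. None of these passed, with a median of -0.09. Nor did any of 4 other tested genes of carnitine transport, transfer and synthesis, or of 7 genes of malonyl-CoA control, the member Mlycd among them. Among 20 tested regulators, 3 of them members, 1 passed. Klf15, a transcription factor of fasting metabolism, had 6 reads in controls and 42 in Tfam cKO (2.57 ± 0.57 SE, adjusted p = 0.0106, but 0.0596 without Tfam cKO replicate 3 and 0.0522 with pseudocount 0.1). Ppard, Pparg and Esrra, nuclear receptors that act on these enzymes, had log2 fold changes of 0.20, 0.60 and 0.37 (adjusted p = 0.501, 0.203 and 0.197).

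Summed over the 18 chain-shortening genes, the level was 1898, 2264 and 1996 normalized counts in controls and 2691, 2636 and 2390 in Tfam cKO. All 3 Tfam cKO sums lay above the controls. The 11 genes of entry summed to 991, 1028 and 905 in controls and 905, 941 and 769 in Tfam cKO, and these groups overlapped. Within each group the order of the 3 chain-shortening sums was that of the summed muscle markers. With the muscle level as a covariate, an alternative added after the data were seen, 6 members were higher and 1 lower, with a median of 0.27. Leaving out the library richest in muscle markers from each group, also added afterwards, gave 3 higher (Acot2, Hadh and Acadm), 0 lower and a median of 0.31.

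**Figure D5:**
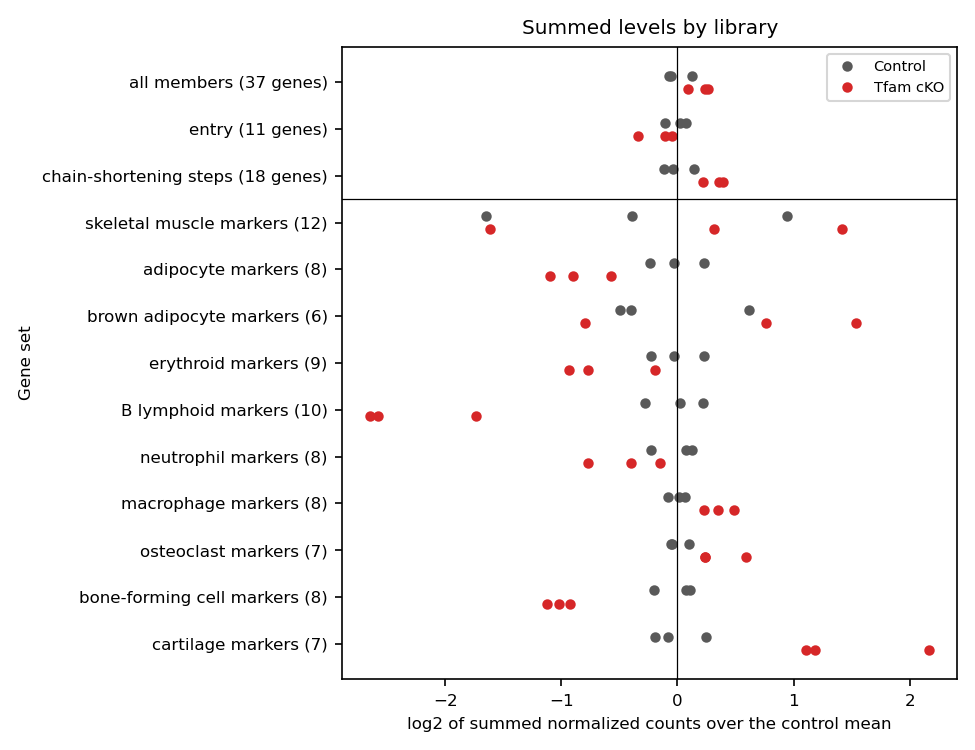
Points give the summed normalized counts of each set in 1 library as log2 over the control mean, for the members above the line and for cell type markers below it, with the number of genes in brackets. The chain-shortening sums separate by genotype by a small margin, muscle markers spread widely within both groups, and B lymphoid and adipocyte markers (the latter mostly Fabp4) lie lower and cartilage and macrophage markers higher in Tfam cKO.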

How the data were processed

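The authors deposited 1 table with normalized counts of 6 libraries (unit: signal, reads per gene scaled by a size factor) and their own q-value per gene, per the file headers. TopHat, Cufflinks and the mm10 build appear, with no versions, in the submitters' processing notes. The counting program, its strand setting and its treatment of shared reads were not given in the sources used here. Libraries were directional and poly(A)-selected, made from 50 ng of RNA (integrity number over 6.7), per the labels' protocols. All values (100%) were whole multiples of the value of 1 read within 0.001 reads, though in Control replicates 1 and 3 that value is within 1% of 1. The table has 0 rows on the mitochondrial chromosome.

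Tests used log2(normalized count + 1), a mean of at least 1, limma 3.58.1 with a mean-variance trend in R 4.3.3, and Benjamini-Hochberg adjustment over 14438 genes. Fold changes are on that scale and understate changes of low genes. Alternatives were edgeR 4.0.16 and DESeq2 1.42.0 on the recovered reads, other pseudocounts, filters and scalings, a replicate block, and each library left out. The fit was tested on simulated data with changes larger than those of all members but Acot2, so smaller changes were not tried. The members, the 9 related and 10 marker lists and the tests were chosen with earlier results of these data known. Every member could be named, and from each list the genes past the threshold, at most the 4 with the smallest p. Acot1, Slc25a20, Ppard, Pparg and Esrra were named besides, after their values were seen, as were the markers Hba-a1, Retn, Lep and Cidec, which had few or no reads. Of 203 list symbols 201 matched, 3 of them through older symbols. No same-group libraries agreed within sampling noise, and counting error alone limits low genes.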

Additional observations from a re-analysis of the deposited data

How the results depend on the processing

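The 6 members past the threshold kept their direction under all 19 alternatives, and Acot2 and Hadh passed under all of them. The number of members higher, 5 in the reported fit, was 3 with pseudocount 0.1, 3 with the replicate number as a block, 3 with DESeq2, 3 without the muscle-rich library of each group, and 2 to 8 when single libraries were left out. The number lower, 1 in the reported fit, was 0 with the replicate number as a block, 0 with DESeq2, 0 without the muscle-rich libraries, and 0 to 1 when single libraries were left out. The members' median log2 fold change of 0.30 was 0.20 to 0.32 when single libraries were left out. Over all genes, 1795 were past the threshold, 1149 with DESeq2, 1765 with edgeR, 925 without the muscle-rich libraries (an alternative chosen after seeing the data) and 891 to 1807 when single libraries were left out. The replicate numbers showed no pairing of the samples (correlations of deviations between same-numbered libraries -0.37, 0.02 and 0.13 over 11243 genes). With 3 libraries per group this cannot exclude pairing, and the block gave 1290 genes. Of the members' fold changes under alternatives, 632 kept their side of the threshold, most of them in members not past it. A further 35, all in called members, fell short of it, 13 newly passed and 0 of the called ones changed sign. The cause was not tested. Acadl passed under 14 of the 19 alternatives, Acsl5 under 12, Decr1 under 11 and Oxct1 under 4. Tfam had an adjusted p of 0.0503, 0.0704 and 0.107 with Control replicate 1, 2 or 3 left out, 0.0748 with Tfam cKO replicate 1 left out, 0.0553 with DESeq2 and 0.151 without the muscle-rich libraries, where its log2 fold change went from -0.81 to -0.56. Depth leaves Acsl6, Ppara and Ppargc1a unmeasured. Cpt1b, with 4 reads in controls and 1 in Tfam cKO, is unmeasured too. Whether depth or the exon bases it shares with BC090627 kept its count low was not tested.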
